A study of Bos taurus with 7 samples.

Results

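The sequences described here are the leading fragment of 28S ribosomal RNA (rRNA) in cow's milk and its variants, 334 of the 229971 distinct sequences in 7 small RNA libraries. Their anchor was the 14-nt sequence with the highest mean in the 3 milk libraries, in reads per 1000000 reads of the same library (RPM), among sequences without the last 11 bases of the most abundant 12-nt sequence. Members were all sequences of 11 to 15 nt that hold any 11-base run of the anchor, together with the 14-nt sequences that differ from it at exactly 1 base. The high level of the anchor in milk was therefore the reason for its choice and is no finding. No 28S sequence or genome of the cow was used here, so the name 28S rests on general knowledge of vertebrate rRNA.

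Per the labels, all RNA came from 1 commercial product, Lactantia purefilter milk from Holstein cows, which was pasteurized, homogenized, skimmed and filtered. Fractions of it, titled MP 12k, MP 35k, MP 70k and MP 100k, had 1 library each and no replicate, and 3 libraries were of the milk itself. The labels spell out neither MP nor k. They also do not say whether separate cows or cartons stand behind the 3 milk libraries, so a p-value here reflects library-to-library spread alone, possibly technical.

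28S rRNA is the long RNA of the large ribosomal subunit, where it forms the peptidyl transferase centre that joins amino acids. Because ribosomes are abundant, pieces of rRNA are regular components of small RNA libraries, in milk as in cells. Such pieces are described by where they start and end on the parent RNA, since the cut positions set both their length and their sequence.

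The sequences on which the results turn are written 5′ to 3′ with T as in the files. In the anchor, capitals mark the last 11 bases, which the forms shortened at the 5′ side alone all retain. In every other form, capitals mark bases that are not those of the anchor at that place, either added or substituted. A token such as C1A gives the base of the anchor, its position with the anchor's 5′ base as 1, and the base read.
anchor, 14 nt: cagGACGGTGGCCA
G added at the 5′ side: Gcaggacggtggcca
A added at the 5′ side: Acaggacggtggcca
shorter by 1 base at the 5′ side: aggacggtggcca
shorter by 2 bases at the 5′ side: ggacggtggcca
shorter by 3 bases at the 5′ side: gacggtggcca
shorter by 1 base at the 3′ side: caggacggtggcc
AG added, 1 base off the 3′ side: AGcaggacggtggcc
AG added, 2 bases off the 3′ side: AGcaggacggtggc
C1A: Aaggacggtggcca
C1T: Taggacggtggcca
A2G: cGggacggtggcca
A5C: caggCcggtggcca
13-nt form with G3T: aTgacggtggcca
The last 11 bases of the most abundant 12-nt sequence, capitalised in gACTCTTAGCGG, were in none of the members (0 sequences).

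Reads of 8 to 15 nt numbered 1817538 to 2560280 per fraction and 1658606 to 4572650 per milk library. Sequences with that 11-base core took 60.1% to 76.7% of the reads of a fraction and 69.8% to 75.8% of those of a milk library. Shares of reads therefore depended on it, and the family is also given without it. The limit behind a value of 0 is 3 reads, or 1.17 to 1.65 RPM in the fractions and 0.656 to 1.81 RPM in milk.

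The family's mean share of reads differed little between the fractions and milk, and the fractions were spread more widely. It made up 3.72%, 4.62%, 7.52% and 3.42% of all reads in fractions 12k, 35k, 70k and 100k, against 5.45%, 4.84% and 4.01% in milk 1, 2 and 3. The 70k fraction was above every milk library, the 12k and 100k fractions were below every milk library, and the 35k fraction lay within their range. The 95% Wilson interval of each share reached at most 0.0383 percentage points to either side, which covers counting error only. The means were 4.82% ± 1.87 over the fractions (SD, n = 4) and 4.76% ± 0.721 in milk (SD, n = 3), a difference of 0.0566 points (exact permutation test, two-sided, p = 0.971). With 4 libraries against 3 there are 35 ways to assign the labels and the smallest possible p is 0.0571, so no such test here could pass 0.05. With the core sequences left out of the total, the family took 13.3%, 11.6%, 21.8% and 14.7% in fractions 12k, 35k, 70k and 100k, against 18.0%, 16.4% and 16.6% in milk. The 70k fraction again stood above milk, and the other 3 fractions were all below it. Fewer rRNA pieces and more of other RNA cannot be told apart in such shares.

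The anchor itself stood at 27363, 32961, 51461 and 19754 RPM in fractions 12k, 35k, 70k and 100k, against 37937, 34844 and 28621 RPM in milk 1, 2 and 3. It was highest in the 70k fraction and lowest in the 100k fraction, on either side of the milk range. Over the 4 fractions it averaged 32885 ± 13515 RPM, against 33801 ± 4745 RPM in milk (SD). Its log2 fold change was −0.18 (SE 0.61, edgeR quasi-likelihood test, adjusted p = 0.901), and in single fractions it lay between −0.48 and 0.29 with edgeR adjusted p of at least 0.684. The direction over the 4 fractions turned to 0.39 without the 100k fraction and to 0.40 with a minimum of 50 reads.

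The anchor took most reads of its family, and forms with 1 more base at the 5′ side came next. Its share of the family's reads was 73.6%, 71.3%, 68.4% and 57.7% in fractions 12k, 35k, 70k and 100k, against 69.7%, 72.1% and 71.4% in milk 1, 2 and 3. The 4 exact forms longer by 1 base at the 5′ side held 13.2%, 13.97%, 18.9% and 19.6% in those fractions, against 15.1%, 13.1% and 13.7% in milk. Exact shorter pieces, of which there were 9, held 7.30% to 10.4% in the fractions, against 9.08% to 10.9% in milk. The 42 forms of 14 nt with a single mismatch, which are all that can exist, held 3.46%, 3.23%, 3.56% and 11.8% in fractions 12k, 35k, 70k and 100k, against 4.82%, 2.93% and 3.04% in milk. In the 100k fraction the anchor's share was lowest and that of the single mismatch forms highest of the 7 libraries. Another 251 members carried a mismatch beside an exact run of 11 bases, 7 of them through a base that was not called. Of the rest, 22 were exact but shifted, 4 were longer at the 3′ side and 1 matched the anchor at all 14 positions but 1 uncalled base. Of all members, 95 were in all 7 libraries, 121 were in 1 library only, and 209 never reached 10 reads in any.

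The 3′ end was nearly fixed, while the 5′ end varied over a few bases. Reads that ended at the anchor's last base formed 99.4%, 99.4%, 99.5% and 99.5% of the family in fractions 12k, 35k, 70k and 100k, against 99.4%, 99.2% and 99.2% in milk. Reads that began at its first base formed 77.4%, 74.9%, 72.4% and 70.5% in those fractions, against 74.9%, 75.3% and 74.8% in milk. A start 1 base earlier made up 13.6% to 20.6% in the fractions and 13.4% to 15.7% in milk, and a start 1 base later 6.83% to 9.50% in the fractions and 8.30% to 10.01% in milk. The exact forms with 1 base added after the anchor had 4, 1, 5 and 0 reads in fractions 12k, 35k, 70k and 100k, against 1, 3 and 1 reads in milk. The 2 with most milk reads, caggacggtggccaT and caggacggtggccaC, had at most 1 read in any milk library. The window of 15 nt leaves room for only 1 base beyond the 14 of the anchor on either side. As a description, the other leading 14-nt sequence, gcagctaggaataa, placed in 18S rRNA by general knowledge, had its most common end in 99.9% to 100% of its reads, over both kinds of library. Its most common start held 37.5% to 50.5% of them, so its 5′ end was more spread than that of the 28S anchor.

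For 9 measures of start, end, length and single mismatch forms the fractions overlapped milk (exact permutation test, two-sided, adjusted p 0.343 to 0.629). None could have passed, since the smallest possible p of this test was 0.0571. The share ending at the anchor's last base was higher by 0.165 points (exact permutation p = 0.114), with 3 of 4 fractions above all milk libraries. Shares shorter at the 5′ or the 3′ side were lower by 1.34 and 0.163 points (exact permutation p = 0.114 for each), again with 3 of 4 fractions below all milk libraries. The share longer at the 5′ side was 13.8%, 14.6%, 19.8% and 20.6% in fractions 12k, 35k, 70k and 100k, against 15.9%, 13.8% and 14.4% in milk (exact permutation p = 0.400), so only the 70k and 100k fractions were above milk.

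Among the exact forms longer at the 5′ side, the added base was nearly always G. The G form had 4737, 6179, 13655 and 6401 RPM in fractions 12k, 35k, 70k and 100k, against 7853, 6082 and 5333 RPM in milk 1, 2 and 3. It exceeded milk in the 70k fraction only (log2 fold change over the 4 fractions 0.17, SE 0.67, edgeR adjusted p = 0.916), and its direction reversed under 3 of 13 alternatives. G was 95.4% to 96.8% of the bases added to the anchor in the fractions and 95.5% to 97.0% in milk. A followed, with 2.47% to 3.70% in the fractions and 2.10% to 2.93% in milk. The A form had 123, 239, 381 and 166 RPM in fractions 12k, 35k, 70k and 100k, against 218, 185 and 115 RPM in milk. C was the rarest added base outside the 100k fraction, with 0.0442% to 0.116% in the 12k, 35k and 70k fractions and 0.0619% to 0.183% in milk, and it reached 1.24% in the 100k fraction. That form, Ccaggacggtggcca, had 2.16, 4.69, 16.5 and 83.0 RPM in fractions 12k, 35k, 70k and 100k, against 10.9, 3.91 and 10.1 RPM in milk, and did not pass the test in 100k (edgeR adjusted p = 0.0765). It was singled out after its values had been seen.

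A start 2 bases earlier with the usual 3′ end would make 16 nt and lie outside the window, so it could be seen only in reads shorter at the 3′ side. The form with AG added and 1 base missing at the 3′ side had 58.9, 66.4, 13.2 and 0 RPM in fractions 12k, 35k, 70k and 100k, against 82.6, 165.8 and 98.2 RPM in milk. All 4 fractions were below all milk libraries, and the 70k and 100k fractions were lowest. The form with 2 bases missing had 1, 2, 6 and 4 reads in fractions 12k, 35k, 70k and 100k, against 23, 123 and 182 reads in milk. This was 0.433 to 3.30 RPM in the fractions, against 13.9 to 40.1 RPM in milk, with no overlap. Over the 4 fractions its log2 fold change was −4.46 (SE 1.21), which did not pass edgeR (adjusted p = 0.0872, 0.0643 with limma) and passed only DESeq2 (adjusted p = 0.00151). Leaving out 1 fraction at a time gave edgeR adjusted p of 0.0928 to 0.144. It reached 10 reads in the milk libraries only, so it entered the test through the group in which it was high. This form, too, was chosen after its values had been seen.

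The shorter forms made a ladder of falling abundance from the 5′ side. The 13-nt form had 2813, 4244, 4776 and 2186 RPM in fractions 12k, 35k, 70k and 100k, against 4336, 4724 and 3859 RPM in milk. Its log2 fold change over the 4 fractions was −0.45 (SE 0.66, edgeR adjusted p = 0.746), turning to 0.10 without the 100k fraction and to 0.13 with a minimum of 50 reads. The 12-nt form had 304, 429, 551 and 273 RPM in those fractions, against 429, 387 and 323 RPM in milk. The 11-nt form had 35.9, 23.8, 134.8 and 88.7 RPM, against 90.4, 37.4 and 55.5 RPM in milk, and in each of the 3 forms the groups overlapped. On the 3′ side, the 13-nt form without the last A had 59.3, 79.7, 15.4 and 8.77 RPM in fractions 12k, 35k, 70k and 100k, against 66.3, 77.2 and 121.6 RPM in milk. The 70k and 100k fractions were the lowest, the 12k fraction was also below all milk libraries, and the 35k fraction was within their range, with no call by edgeR in the 70k or 100k fraction (adjusted p = 0.180 in 70k and 0.162 in 100k). The remaining 5 pieces, aggacggtggcc, caggacggtggc, ggacggtggcc, caggacggtgg and aggacggtggc, had at most 18.7 RPM in a fraction and at most 21.2 RPM in a milk library. At the rule's lower limit, the 4 exact 11-nt pieces together had 78.0 ± 51.9 RPM in the fractions and 70.0 ± 21.6 RPM in milk (SD, n = 4 and n = 3). The 5 exact 10-nt pieces just outside it had 96.0 ± 52.3 RPM in the fractions and 62.7 ± 18.8 RPM in milk.

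Mismatch forms differed most at the first base, and there mainly in the 100k fraction. C1A had 30.3, 32.8, 56.1 and 2611 RPM in fractions 12k, 35k, 70k and 100k, against 92.8, 43.3 and 29.3 RPM in milk 1, 2 and 3. In the 100k library this was 5062 reads, and the other 3 fractions were within the range of milk. Of the 14-nt forms with any base before the 13-nt shorter piece, those with A were 0.110%, 0.0988%, 0.108% and 11.4% in fractions 12k, 35k, 70k and 100k, against 0.243%, 0.124% and 0.102% in milk. C1A, C1G and C1T can be read equally as substitutions of the anchor or as its 13-nt shorter form with another base before it, and the counts do not separate these readings. C1G had 160, 163, 144 and 193 RPM in fractions 12k, 35k, 70k and 100k, against 197, 137 and 185 RPM in milk, and all 4 fractions were within the range of milk. Position 1 carried 7.53, 7.37, 4.91 and 130.3 mismatch reads per 1000 reads of the anchor and its single mismatch forms in fractions 12k, 35k, 70k and 100k, against 8.35, 5.54 and 7.94 in milk. It had the highest mean of the 14 positions over each kind of library, and position 9, the only T, had the lowest, with 0.521 to 0.892 in the fractions and 0.683 to 0.843 in milk.

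Inside the anchor the pattern was another, and in RPM the 100k fraction was the low one for several forms but not for all. A5C had 120, 151, 264 and 5.67 RPM in fractions 12k, 35k, 70k and 100k, against 198, 166 and 137 RPM in milk. G10T had 136, 108, 181 and 36.6 RPM in those fractions, against 256, 144 and 96.4 RPM in milk. G3T had 74.9, 100.0, 195 and 16.5 RPM there, against 219, 116 and 81.1 RPM in milk. In these 3 forms the 100k fraction lay below every other library, although the anchor was also lowest there. For G3T this held for the form caTgacggtggcca, not over all members that carried the change. Over all of them, G3T had 93.1, 130, 263 and 259 RPM in the same fractions. In milk it had 291, 149 and 111 RPM. Per 1000 family reads this was 7.568 in the 100k fraction, against 2.504 to 3.496 in the other fractions and 2.765 to 5.347 in milk. Most of it in the 100k fraction was aTgacggtggcca, with 236 RPM. That form can be read equally as the form shorter by 3 bases with AT before it, and the counts do not separate these readings. G7T had 59.3, 95.7, 153 and 119 RPM in fractions 12k, 35k, 70k and 100k, against 232, 89.6 and 74.6 RPM in milk, and its groups overlapped. Per 1000 family reads it was 3.482 in the 100k fraction, 1.596 to 2.071 in the other fractions and 1.852 to 4.251 in milk. On that scale A5C and G10T stayed lowest in the 100k fraction, at 0.1658 and 1.07. Position 8 had 2.625 mismatch reads per 1000 reads of the anchor and its single mismatch forms in the 100k fraction. That was above every other library, with 0.964 to 1.443 in the other fractions and 0.755 to 1.026 in milk. Leaving position 1 aside, G-to-T changes were 33.3%, 32.3%, 30.1% and 26.3% of the single mismatch reads in fractions 12k, 35k, 70k and 100k, against 44.1%, 37.2% and 33.7% in milk. This was the largest class of change in every library except the 70k fraction, where A-to-C changes held 30.4%. The anchor has 6 G positions but 3 A positions, so these shares cover unlike numbers of sites and are no rates per site. Its G and C content is 71.4%.

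Reads with A2C had other 3′ ends in part, in a comparison made after the values had been seen. Over all members that carried it, A2C had 136, 248, 1045 and 431 RPM in fractions 12k, 35k, 70k and 100k, against 283, 88.6 and 77.6 RPM in milk. Reads with A2C ended at the anchor's last base in 73.2%, 83.9%, 75.6% and 72.8% of cases in those fractions, against 74.3%, 87.9% and 93.2% in milk, whereas C1G reads did so in 99.8% to 100% of cases in the fractions and 100% in milk. For A2T the range was wider, with 44.7% to 97.7% in the fractions and 42.1% to 97.1% in milk. A2G, the other change at this position, ended there in 76.6%, 77.4%, 100% and 99.7% of reads in fractions 12k, 35k, 70k and 100k, against 98.9% to 100% in milk. Among reads with A2C, 2 forms were the most abundant outside the 14-nt class. Each can be read equally as the form shorter by 2 bases at the 5′ side with other bases before it. The counts do not separate these readings, in these forms or in the A2C totals. The 15-nt form GcCggacggtggcca had 41.1, 81.2, 232 and 59.8 RPM in fractions 12k, 35k, 70k and 100k, against 57.9, 30.9 and 33.2 RPM in milk. The 13-nt form Cggacggtggcca had 16.9, 37.9, 190 and 103 RPM in the same fractions, against 44.6, 21.2 and 8.09 RPM in milk. Both were highest in the 70k fraction, and neither passed there (edgeR adjusted p = 0.166 and 0.101).

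To test single members, edgeR was run over the 5681 sequences that reached 10 reads in 3 or more libraries, 83 of them members. A sequence was called at an adjusted p under 0.05. Between the 4 fractions and milk, 0 members were called, where 0.0352% of all tested sequences were (2 of 5681). At an unadjusted p under 0.05 there were 3 members of 83, where 17.5% of all tested sequences were. The form with AG added and 2 bases missing was among these 3, and it entered the test through the milk libraries alone. DESeq2 called 1 member and limma 0, where they called 7.27% and 0.0704% of all. DESeq2 gave no adjusted p to 2 of the 83 members, which could therefore not be called. In the single comparisons of fractions 12k, 35k, 70k and 100k it gave none to 25, 22, 18 and 16 members. The median log2 fold change was 0.0033 over the 83 members and −0.18 over all sequences tested. Without TMM, edgeR's scaling of library sizes, the median over all sequences was −0.058. All 4 fractions lay on 1 side of all milk libraries for 4 of the 83 members, 2 above and 2 below (2.41% each), where 17.7% of all tested sequences did so, 7.53% above and 10.2% below. The members lower in that sense were the 2 AG forms above, and those higher were caggaAggtggcca and AGCAgacggtggcca, with edgeR adjusted p of 0.891 and 0.308.

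For a single fraction the error was estimated from milk alone and assumed to hold for the fraction's 1 library too. The form with AG added and 2 bases missing entered these tests, too, through the milk libraries alone. It is the member counted below by unadjusted p in the 12k fraction and in the 35k fraction. No member was called in the 12k, 35k or 70k fraction (0 each), where 1.67%, 2.36% and 1.13% of all tested sequences were called. DESeq2 called 1, 1 and 5 members there, where it called 3.24%, 4.37% and 14.8% of all, and limma called 0 of all. At an unadjusted p under 0.05 there were 1, 1 and 7 members, where 10.4%, 12.6% and 23.2% of all were. In the 100k fraction edgeR called 6 members, 4 higher and 2 lower, where 3.93% of all tested sequences were called, 2.11% higher and 1.81% lower. The median log2 fold change there was 0.11 over the members tested and −0.87 over all sequences, or −0.26 and −1.14 without TMM scaling.

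The 4 members that rose in the 100k fraction all differed from the anchor within the first 2 bases of the read and kept its 3′ end. C1A had a log2 fold change of 5.98 (SE 0.85, edgeR adjusted p = 2.545e-05). For A2G it was 4.31 (SE 1.05, edgeR adjusted p = 0.0177), with 165 RPM in the 100k fraction, against 5.47 to 19.3 RPM in milk. The 13-nt form with G3T reached 236 RPM in the 100k fraction, against 13.3 to 30.1 RPM in milk, a log2 fold change of 3.92 (SE 0.99, edgeR adjusted p = 0.0213). C1T reached 296 RPM in the 100k fraction, against 20.8 to 49.4 RPM in milk, a log2 fold change of 3.61 (SE 0.94, edgeR adjusted p = 0.0251). A related form, AGggacggtggcca, had 74.3 RPM in the 100k fraction, at most 1.73 RPM in the other fractions and at most 0.603 RPM in milk, and was not tested because too few libraries held 10 reads of it. It was chosen after its values had been seen.

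The 2 members that fell in the 100k fraction were A5C and the 15-nt AG form. A5C had a log2 fold change of −4.56 (SE 1.33, edgeR adjusted p = 0.0449). The AG form had 0 reads in the 100k fraction, which is at least 74.7-fold lower than its milk mean when 3 reads are taken as the limit (edgeR adjusted p = 0.00793). All 6 calls rested on several libraries and on the scaling: 0 were left without TMM, with limma, and without the 35k fraction, the 70k fraction or milk 2. The same settings left 0 of all tested sequences called, or 1 without milk 2, so the loss was not particular to the members. Without the 12k fraction or without milk 3 there were 3 members, where 0.898% and 4.38% of all were called. DESeq2 called 13, of them 4 higher and 9 lower, where it called 16.1% of all, 2.85% higher and 13.2% lower. Over 12 alternatives the edgeR, DESeq2 and limma adjusted p of C1A ran between 7.43e-13 and 0.415 and passed in 7, and its log2 fold change stayed between 4.19 and 6.42. The AG form passed in 6 of the 12, A2G and A5C in 4 each, and C1T and the 13-nt form with G3T in 3 each.

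The rate of single mismatches was compared with that of other leading fragments in the same libraries, as reads per base. For the anchor it was 0.321%, 0.309%, 0.354% and 1.21% in fractions 12k, 35k, 70k and 100k, against 0.462%, 0.279% and 0.292% in milk 1, 2 and 3. Without C1A, the most abundant form in the 100k fraction, the 100k value was 0.478%, and without the first and last base it was 0.358%, against 0.446% in milk 1. The rate of gACTCTTAGCGG was 0.185%, 0.196%, 0.260% and 0.461% in the same fractions, against 0.420%, 0.178% and 0.181% in milk. The anchor's rate was higher in 7 of 7 libraries, by 1.60-fold (log2 0.68, exact permutation of signs, two-sided, p = 0.0156, adjusted over 3 comparisons p = 0.0469). With 7 libraries, 0.0156 is the smallest p possible, and with any 1 library other than the 70k fraction left out the adjusted p was 0.0938. Against acgttgggcgcc, placed in a lysine transfer RNA by general knowledge, it was 1.35-fold and higher in 6 of 7 libraries (exact adjusted p = 0.211). That fragment had only 6 mismatch reads in the 100k fraction and 29 in the 70k fraction, and the comparison passed without the 70k fraction (exact adjusted p = 0.0469). Against gcagctaggaataa it was 1.16-fold and higher in 5 of 7 (exact adjusted p = 0.641). The last comparison changed with the forms counted: it passed without the first and last base (1.33-fold, exact adjusted p = 0.0234) and turned to 0.988-fold without the 100k fraction (exact adjusted p = 0.750). The 3 fragments differ from the anchor in base composition and length, and the part of these in the rates was not tested. At the rule's mismatch limit, the 43 members of 14 nt with 1 mismatch, the uncalled base included, had 2387 ± 1272 RPM in the fractions and 1768 ± 765 RPM in milk. The 414 sequences with 2 mismatches that were left out had 150 ± 59.3 RPM in the fractions and 144 ± 77.5 RPM in milk (SD, n = 4 and n = 3).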

How the data were processed

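RNA of 8 to 15 nt was counted in 4 milk fractions and 3 milk libraries. Each deposited file pairs distinct sequences with read counts made by the authors, per the file headers. How reads were trimmed, filtered or aligned is not given in the sources used here, nor is a build. The 1 row per file without a sequence repeats the total and was left out. RPM were computed from the deposited counts over the file total, which covers this length window and is not the library depth. The deposited counts hold no molecular identifiers, so intervals cover counting error only. Milk libraries differed beyond sampling noise (chi-square per degree of freedom 34.2 to 105.9) and count as 3.

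Members and lists were chosen with earlier results of these data known. Members were placed on the anchor without gaps (Python 3.11.15). The sequences named were the anchor, its 9 shorter pieces, up to 2 longer forms per side, the 6 most abundant single mismatch forms, the highest and lowest position by mismatches, the 3 most abundant members of other classes and the called members (up to 5 per direction). Others are marked as chosen after their values were seen. Tests were edgeR 4.0.16 (R 4.3.3, glmQLFit, TMM, Benjamini-Hochberg over all 5681 sequences) and exact permutation tests (numpy 2.4.6). The edgeR test of 4 fractions against milk was checked on simulated data, and the exact tests on fixed values. The single-fraction fits were not checked in this way. Single-fraction fits used 5 group means. The SE beside an edgeR fold change was derived from the test, as the absolute log2 fold change over the square root of its F statistic. Alternatives were DESeq2 1.42.0, fits without TMM, limma 3.58.1 (log2 of RPM + 1), minimums of 1 read in 2 or 50 reads in 3 libraries, no core sequences, other member sets, thinning to 1658606 reads and leaving out each library.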

Additional observations from a re-analysis of the deposited data

Results flagged for a closer look

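For 37 values the gap between the most extreme of the 4 fractions and its nearest neighbour was set against their whole range, and in 8 the extreme fraction stood apart by Dixon's criterion. Chance alone marks about 1 in 20 such groups. That rate cannot be set against the 8 here, since called members were among the values examined. C1T, A2G and the 13-nt form with G3T were in the list because edgeR had called them in the 100k fraction. In the 100k fraction these were the single mismatch forms at 11.8% of the family's reads, the mismatch rate at 1.21% per base, C1A at 2611 RPM, C1T at 296 RPM, the 13-nt form with G3T at 236 RPM, A2G at 165 RPM and the 11-nt piece aggacggtggc at 0.516 RPM, which is 1 read. In the 70k fraction the 11-nt piece caggacggtgg stood apart at 4.95 RPM, from 9 reads. The values share reads in part, since C1A, C1T and A2G are among the forms that the first 2 values sum. The counts of the 11-nt pieces are too low to compare libraries.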

How the results depend on the processing

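No paired analysis was possible because each fraction has 1 library, so that the groups share fewer than 2 replicate numbers. Depth limits the rare members: 209 never reached 10 reads.

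Of the counts of called members, that of the 4 fractions against milk moved under DESeq2, to 1 (7.27% of all sequences), and stayed at 0 in 12 other alternatives. That 1 was the form with AG added and 2 bases missing, which entered the test through the milk libraries alone. In single fractions DESeq2 gave 1 in 12k, 1 in 35k, 5 in 70k (2 higher, 3 lower) and 13 in 100k (4 higher, 9 lower), where it called 3.24%, 4.37%, 14.8% and 16.1% of all sequences (2.85% higher and 13.2% lower in 100k). A minimum of 50 reads gave 4 in 70k, where 25.5% of all were called. In 100k there were 0 without TMM or with limma, where 0% of all were called. Without the core sequences there was 1, where 0.0356% of all were called. With a library left out there were 0 to 9, the 9 without milk 1, where 11.7% of all were called. There were 0 without the 35k fraction, the 70k fraction or milk 2, where at most 0.022% of all were called. There were 3 without the 12k fraction or milk 3, where 0.898% and 4.38% of all were called. In 70k leaving out a library gave 0 to 5, the 5 without milk 1 (10.4% of all). The cause was not tested.

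The share of the family over the fractions minus milk reversed to −1.68 points without the core sequences, −0.0480 without mismatch members and −0.0157 as distinct sequences, and ran from −0.844 (without 70k) to 0.523 with a library left out, −0.320 without milk 3. Without 15-nt members the differences in shape became 1.28 points for the start, −0.0091 for the end, 0.0053 for shorter and 0.0038 for longer at the 3′ side, and −0.0473 for longer at the 5′ side. As distinct sequences, those shorter at the 5′ side differed by 0.109 and single mismatch forms by −3.19 points. With a library left out, the anchor's share ran from −5.20 to 0.0890 (without 100k), single mismatch forms from −0.179 (without 100k) to 2.67 and the share longer at the 3′ side from −0.0055 to 0.0024 points (without milk 3). Without mismatch members or without 15-nt members the measures built on them have no value. None passed.

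With a library left out, the anchor's mismatch rate over that of the leading 12-nt sequence ran from 0.56 to 0.77 (log2) and no longer passed except without 70k (exact adjusted p 0.0938, the smallest that 6 libraries allow unless other comparisons pass), that over the second 12-nt sequence from 0.20 to 0.59, passing without 70k, and that over the other 14-nt sequence from −0.018 to 0.27. Without the most abundant form the ratios to the second 12-nt sequence (0.53) and the other 14-nt sequence (0.29) passed, as did the ratio to the other 14-nt sequence without the end bases (0.41). Fold changes turned for the 13-nt form (0.13 with 50 reads, and −0.66 to 0.10 with a library left out), the anchor (0.40, and −0.35 to 0.39) and the G form (−0.79 with a minimum of 1 read, and −0.13 to 0.61, −0.088 without milk 3), none of them called.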
